A study of Mus musculus with 6 samples.

Results

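*Trav9-3* is a mouse TCR Vα gene of the *Trav9* family, and was chosen by its abundance, as the V gene listed alone most often in both *Trav9* amplicon libraries. Its sequences were taken as those whose V assignment named only *Trav9-3* (written TRAV9-3 by the assignment tool), whatever the allele, and whose J assignment named a single *Traj* gene. This gave 388598 sequences in the WT library and 205236 in the SKG library, or 593834 of the 2326610 *Trav9* amplicon sequences and of the 3675237 sequences in all 6 libraries. Of the WT sequences, 237698 were productive (in frame without a stop codon) and 150900 were unproductive. Of the SKG sequences, 143070 were productive and 62166 were unproductive.

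The study asked whether a hypomorphic *Zap70* allele changes which *Traj* segments are joined before thymic selection. WT mice were the paper's BALB/c controls. For comparisons of WT and SKG, its methods describe a cross of BALB/cJ with SKG mice, from which WT and SKG mice were then bred separately. SKG mice are on the same BALB/c background and carry a spontaneous point mutation in an SH2 domain of *Zap70*, the kinase that relays TCR signals, which lowers the strength of those signals. The cells were thymic CD4+CD8α+TCRβ-CD69-CD5- thymocytes, which are double positive (DP) cells sorted before they receive a selection signal, and the labels give neither the age nor the number of mice behind a library. The methods describe amplification of cDNA from a *Trav9* forward primer to a reverse primer in the constant region, whereas the labels name genomic DNA as the molecule. The sorted phenotype could not be checked, because only V and J assignments were measured.

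In the TCRα locus, a DP thymocyte joins a *Trav* gene to a *Traj* segment and can later replace that join with one between a more upstream *Trav* gene and a more downstream *Traj* segment. *Traj* segments are numbered from the 3′ end, so high numbers lie nearest the V genes and low numbers are the distal ones. The *Trav* gene encodes the body of the variable domain with CDR1 and CDR2, and each *Traj* segment encodes the end of CDR3 and the last framework strand.

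The *Traj* segments on which the results turn are shown as examples of what was joined to *Trav9-3*. The bases before the framework motif become part of CDR3. They are read from NCBIM37, an assembly of C57BL/6 and not of BALB/c, on the plus strand of chromosome 14, 5′ to 3′. Capitals mark the in-frame Phe-Gly-X-Gly motif, searched in the coding strand and frame alone as the codons TTT or TTC, GGN, any codon and GGN.
Traj58 (chr14:54776955-54777017): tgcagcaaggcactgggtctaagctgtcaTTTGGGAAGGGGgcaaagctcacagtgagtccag
Traj56 (chr14:54778938-54779000): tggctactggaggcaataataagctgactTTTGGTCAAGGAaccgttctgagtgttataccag
Traj52 (chr14:54784991-54785056): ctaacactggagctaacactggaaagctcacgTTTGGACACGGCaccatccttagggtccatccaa
Traj40 (chr14:54797596-54797656): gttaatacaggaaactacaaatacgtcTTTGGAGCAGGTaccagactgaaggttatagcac
Traj37 (chr14:54801193-54801252): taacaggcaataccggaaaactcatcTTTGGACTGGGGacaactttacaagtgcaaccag
Traj23 (chr14:54815756-54815815): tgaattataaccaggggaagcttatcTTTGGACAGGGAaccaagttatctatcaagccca
Traj17 (chr14:54821450-54821512): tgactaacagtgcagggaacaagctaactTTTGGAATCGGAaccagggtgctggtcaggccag
Traj11 (chr14:54826814-54826872): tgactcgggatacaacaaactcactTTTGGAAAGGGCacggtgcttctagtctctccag
Traj4 (chr14:54835966-54836028): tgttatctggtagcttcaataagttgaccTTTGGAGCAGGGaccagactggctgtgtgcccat

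*Traj58*, *Traj56* and *Traj52* had the lowest SKG to WT ratios among well used segments, and *Traj17*, *Traj37* and *Traj4* the highest. *Traj40* was the most used segment in SKG, *Traj11* had the largest ratio of all, and *Traj23* was nearly always unproductive. Of 43 segments with productive *Trav9-3* sequences, 42 were placed in the assembly and 38 held the motif in frame, against 40 of all 59 *Traj* segments placed (67.8%). The sequence of *Trav9-3* itself was not used here. Its family neighbours *Trav9-2* (chr14:54210755-54211189) and *Trav9-4* (chr14:54295816-54296304) lie 563 kb and 478 kb before *Traj61*.

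There was 1 library per genotype, so no difference has a replicate check and a test speaks for the pair of libraries it compares, not for the genotypes. Each distinct sequence was counted once after the authors removed duplicates, so shares are neither of reads nor of cells. The 95% Wilson confidence intervals (CI) and floors hold counting error alone, since no molecular identifiers tell PCR copies from separate molecules. A second error, called the scaled standard error (SE), multiplies the binomial variance by 29.5, the excess spread of the *Trav9-3* productive share over 44 *Traj* segments, and is the error of the quasi-binomial comparison. For distal, band and segment shares this factor is borrowed from the productive share. The excess spread of *Traj* use itself was not measured, so the scaled SE and quasi-binomial p-values of *Traj* use rest on that borrowed factor. In comparisons with another V gene, the larger of the factors of *Trav9-3* and that gene was used, which lay between 29.5 and 39.1 for the *Trav9* genes. The WT library held 1587280 and the SKG library 739330 *Trav9* sequences, and the part of this gap in the differences given here was not tested. A count of 3 sequences corresponds to 0.00126% of productive WT and 0.00210% of productive SKG *Trav9-3* sequences.

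*Trav9-3* was listed alone with 1 *Traj* in 24.5% of WT and 27.8% of SKG *Trav9* sequences, values that belong to its choice and were not tested. *Trav9-4*, the next most frequent, stood alone in 21.8% of WT and 21.1% of SKG sequences. The V assignment was ambiguous for a minority of sequences. In WT, 31585 of the 420188 sequences naming *Trav9-3* named another gene too, which is 7.52% (95% CI 7.44 to 7.60). In SKG, this was 12983 of 218250, or 5.95% (95% CI 5.85 to 6.05). The partner was most often *Trav9d-4*, a gene of the duplicated upstream cluster, in 3.57% of WT and 2.87% of SKG sequences naming *Trav9-3*. *Trav9d-2*, of the same cluster, followed with 2.55% in WT and 2.01% in SKG.

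The sequences shared with *Trav9d-4* alone or *Trav9d-2* alone had a share of *Traj1* to *Traj30* nearer to that of *Trav9-3*. Those shared with *Trav9-2* did not in SKG. Among productive sequences naming both *Trav9-3* and *Trav9d-4*, *Traj1* to *Traj30* made up 29.5% in WT and 35.8% in SKG. Sequences with *Trav9-3* alone had 26.3% in WT and 29.6% in SKG, and those with *Trav9d-4* alone 60.7% and 66.0%. For those naming *Trav9-3* and *Trav9d-2* the shares were 28.5% in WT and 31.03% in SKG, against 57.2% and 62.2% with *Trav9d-2* alone. For the fewer sequences naming *Trav9-3* and *Trav9-2* they were 26.8% (95% CI 24.8 to 28.9) for WT sequences and 36.6% (95% CI 33.4 to 39.9) for SKG sequences, against 29.1% and 37.8% with *Trav9-2* alone. A listing of *Trav9-3* with both *Trav9d-4* and *Trav9n-2* had 15.3% (95% CI 13.3 to 17.7) of 1017 productive WT sequences. In SKG it had 44.3% (95% CI 39.1 to 49.6) of 343, so not every ambiguous set was near *Trav9-3*. These shares are descriptions and were not tested.

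Alleles of *Trav9-3* could not be told apart. All 388603 WT sequences naming only *Trav9-3* listed its 3 alleles 01, 02 and 03 together, as did 205266 of 205267 SKG sequences. The *Traj* side was better resolved. Of 44 segments, 38 had a single allele listing in at least 99% of sequences in both libraries, and the leading listing was the same in both for all 44. The leading listing was not allele 01 for 3 segments, *Traj31*, *Traj32* and *Traj35*. *Traj31* listed allele 02 in 68.9% of WT and 70.4% of SKG sequences, allele 01 in 10.1% and 11.4%, and both in 21.1% and 18.2%. *Traj43* was split as well, with allele 01 in 81.9% of WT and 80.2% of SKG sequences and both alleles in 16.8% of WT sequences.

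*Trav9-3* was joined broadly across the *Traj* array in both libraries. Productive WT sequences used 43 segments, with a mean segment number of 37.6 ± 14.7 (SD over sequences) and a median of 40. Productive SKG sequences used 43 segments too, with a mean of 35.8 ± 14.6 and a median of 38. The 10 most used segments of each library held 43.9% of WT and 43.6% of SKG sequences, and 7 segments were in both sets. The effective number of segments, which is the number of equally used segments that would give the same diversity, was 35.2 in WT and 36.1 in SKG. The overlap of the WT and SKG profiles was 90.7%.

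**Figure D1:**
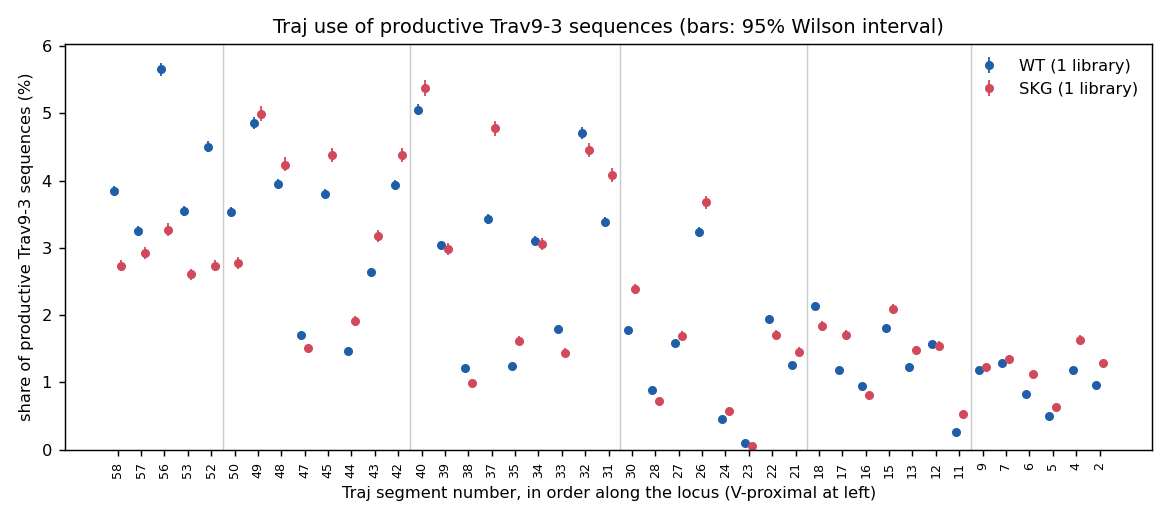
Share of productive *Trav9-3* sequences (y axis, percent) at each *Traj* segment (x axis, V-proximal at left) in the WT and SKG libraries, with 95% Wilson intervals as bars and grey lines between bands of 10 segment numbers. The 5 segments left of the first line, *Traj58* to *Traj52*, are all lower in SKG, and the leading segment is *Traj56* in WT and *Traj40* in SKG.

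The largest difference between the libraries among the bands was at the V-proximal end. *Traj51* to *Traj61* together took 20.8% (95% CI 20.6 to 20.97) of productive WT sequences and 14.3% (95% CI 14.1 to 14.5) of productive SKG sequences. SKG minus WT was -6.54 percentage points ± 0.675 (scaled SE; quasi-binomial comparison, p = 8.29e-20 after Benjamini-Hochberg adjustment over 6 bands). All 5 segments used in this band were lower in SKG, with a median log2 ratio of -0.49. The smallest difference was that of *Traj57* (log2 ratio -0.16 ± 0.15, scaled SE). The same band took 22.1% of unproductive WT and 14.2% of unproductive SKG sequences.

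The other 5 bands each held a larger share in SKG, by smaller amounts, and Fisher's exact test passed in all of them (highest adjusted p = 1.22e-18). The bands add up to the whole of each library, so a lower share of *Traj51* to *Traj61* requires higher shares elsewhere. These tests are therefore not separate from that of the V-proximal band. Shares cannot tell less use of that band from more use of the others. *Traj41* to *Traj50* were at 25.9% in WT and 27.4% in SKG, a difference of 1.48 points ± 0.804 that did not pass the quasi-binomial comparison (adjusted p = 0.0830). *Traj31* to *Traj40* went from 27.0% to 28.8%, which did pass (1.83 points ± 0.816, quasi-binomial adjusted p = 0.0479). Within that band, 4 segments were higher and 5 lower, so it did not move as a block. *Traj21* to *Traj30* were at 11.2% in WT and 12.3% in SKG (quasi-binomial adjusted p = 0.0830), and *Traj11* to *Traj20* at 9.14% and 10.01% (adjusted p = 0.103). The far distal *Traj1* to *Traj10* took 5.96% of WT and 7.26% of SKG sequences, a rise of 1.295 points ± 0.456 (quasi-binomial adjusted p = 0.0111). All 6 segments there were higher in SKG, with a median log2 ratio of 0.37. The log2 ratios of *Traj5* (0.31 ± 0.34), *Traj7* (0.05 ± 0.23) and *Traj9* (0.05 ± 0.24) were within their scaled SE. Those of *Traj2*, *Traj4* and *Traj6* were past it.

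The share of distal joins differed too, by an amount that depended on whether the V-proximal band was counted. With *Traj1* to *Traj30* as distal, the share was 26.3% (95% CI 26.2 to 26.5) in WT and 29.6% (95% CI 29.3 to 29.8) in SKG, 3.22 points ± 0.818 higher (two-sided Fisher's exact test, p = 2.60e-102; quasi-binomial comparison, p = 7.24e-05). When *Traj51* to *Traj61* were left out of the total, a setting added after seeing the data, the distal share was 33.3% in WT and 34.5% in SKG. That difference was 1.22 points ± 0.943 and no longer passed the quasi-binomial comparison (p = 0.196), while Fisher's exact test still gave p = 2.29e-12.

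Of the 43 segments, 25 were higher and 18 lower in SKG, with a median log2 ratio of 0.09 and a range from -0.82 to 1.01. A share that differed by 1.5-fold or more was found for 4 segments, 1 higher (2.33%) and 3 lower (6.98%), together 9.3% of those of *Trav9-3*. Over all pairs of a V gene and a *Traj* segment in the 6 libraries the same threshold was passed by 23%, with 11% higher and 11.9% lower. The count for *Trav9-3* was below that background, which includes *Trav9-3* itself. By gene, the count ran from 3 of 43 segments for *Trav9d-3* to 20 of 41 for *Trav19*, so a low count was not particular to *Trav9-3*. The part of sequence numbers in these counts was not tested.

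*Traj56*, the leading segment of WT, was used in 5.65% of WT and 3.27% of SKG productive sequences. Its log2 ratio was -0.79 ± 0.13 (scaled SE), and its rank went from 1 in WT to 10 in SKG. *Traj52* was used in 4.51% of WT and 2.74% of SKG sequences, a log2 ratio of -0.72 ± 0.15. These are V-proximal segments, as is *Traj58*, with 3.84% in WT and 2.73% in SKG (log2 ratio -0.49 ± 0.15). Unproductive sequences gave log2 ratios of -0.65 for *Traj56*, -0.61 for *Traj52* and -0.73 for *Traj58*. *Traj57*, which is chosen here after its values were seen, lies between them and was 3.25% in WT and 2.92% in SKG among productive sequences. Its log2 ratio was -0.16 ± 0.15 for productive sequences, about 1 scaled SE from no difference, and -0.80 for unproductive sequences.

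The segments with the highest ratios were elsewhere in the array. *Traj37*, in the middle, was at 3.43% in WT and 4.78% in SKG, a log2 ratio of 0.48 ± 0.13, and ranked 12 in WT and 3 in SKG. *Traj17*, a distal segment, was at 1.18% in WT and 1.70% in SKG (log2 ratio 0.53 ± 0.22). *Traj4*, which IMGT classes as an open reading frame (ORF) and not as a functional segment, was at 1.18% and 1.63% (log2 ratio 0.47 ± 0.22). For *Traj17* and *Traj4* the unproductive sequences gave smaller log2 ratios, 0.10 and 0.01, and *Traj37* kept 0.33. The remaining leading segments differed less: *Traj40* was at 5.06% and 5.37%, *Traj49* at 4.85% and 4.995%, and *Traj32* at 4.71% and 4.46%. *Traj48*, *Traj45*, *Traj42* and *Traj31*, also among the 10 most used, had log2 ratios between 0.10 and 0.27.

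**Figure D2:**
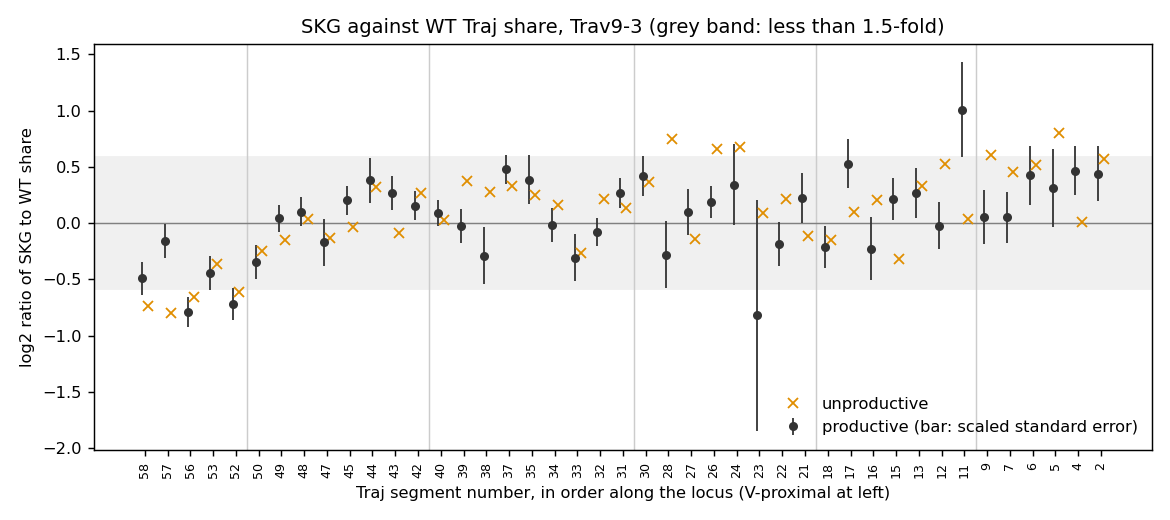
Log2 ratio of shares, SKG over WT (y axis), of each *Traj* segment (x axis, V-proximal at left) joined to *Trav9-3*, with productive sequences as points with scaled SE bars and unproductive sequences as crosses. All 5 segments from *Traj58* to *Traj52* are lower in SKG in both classes, the lowest productive ratio is that of *Traj23* with its wide error, and symbols outside the grey band differ by 1.5-fold or more.

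With *Trav9-3*, the segments tied to innate-like T cells were both lower in SKG, by little, which was not so with *Trav9-2* or *Trav9-4*. *Traj18* is the segment of the invariant TCRα chain of iNKT cells, where it pairs with *Trav11*. It was joined to *Trav9-3* in 2.13% of WT and 1.84% of SKG productive sequences, a log2 ratio of -0.21 ± 0.19 (scaled SE). *Traj33*, the segment of the MAIT cell chain, was joined in 1.79% of WT and 1.44% of SKG sequences, a log2 ratio of -0.31 ± 0.21. Unproductive sequences had log2 ratios of -0.15 for *Traj18* and -0.26 for *Traj33*, and all 4 are under 1.5-fold.

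Productive and unproductive sequences went the same way at 28 of 43 segments. Across segments, the log2 ratios of both classes had a Pearson's r of 0.469 and a Spearman's rho of 0.426, given as a description, since the classes share libraries and segments are not independent replicates. The unproductive distal share was 27.1% in WT and 31.9% in SKG, a difference of 4.81 points. The class is the label given by the assignment tool, and whether it is independent of the productive sequences was not tested.

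The second difference was in functionality. Productive sequences made up 61.2% (95% CI 61.01 to 61.3) of WT and 69.7% (95% CI 69.5 to 69.9) of SKG *Trav9-3* sequences. SKG was 8.54 points ± 0.695 (scaled SE) higher. Fisher's exact test was at the smallest value written, 1e-300, and the quasi-binomial comparison gave p = 2.59e-33. Weighting the SKG segments by their WT use left 8.26 points, so the different *Traj* use moved the value little. The productive share was higher in SKG at 39 of 43 segments, with a median of 7.10 points and a range from -6.80 to 24.9.

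**Figure D3:**
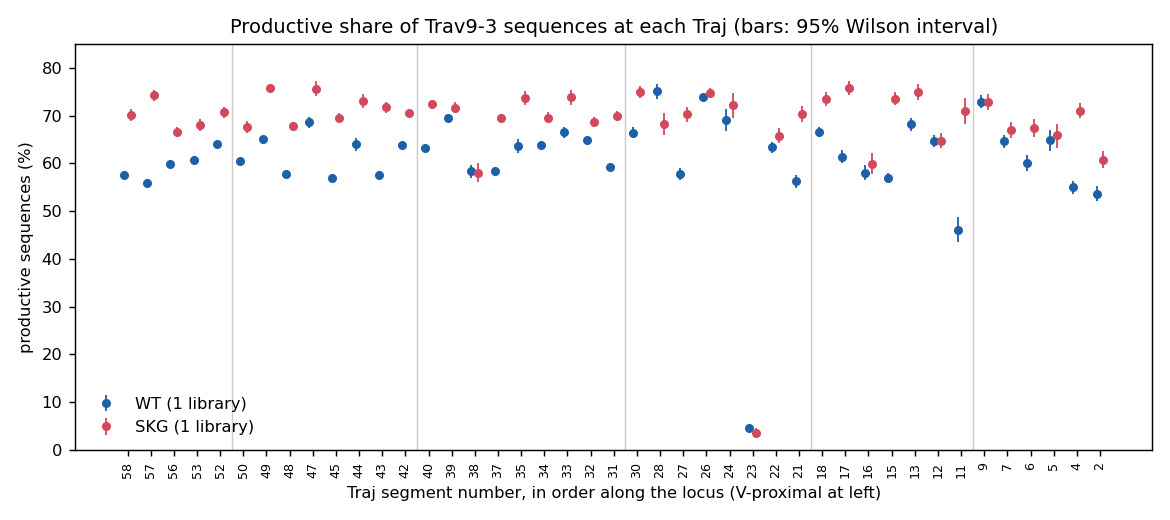
Productive share (y axis, percent of *Trav9-3* sequences) at each *Traj* segment (x axis, V-proximal at left) in the WT and SKG libraries, with 95% Wilson intervals as bars. SKG lies above WT at 39 of 43 segments, and *Traj23* stands below 5% in both.

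*Traj23* had the lowest productive share of the 43 segments, all of which had at least 500 sequences in each library. Only 4.61% (95% CI 4.06 to 5.23) of its 4926 WT sequences and 3.6% (95% CI 2.89 to 4.48) of its 2139 SKG sequences were productive. It holds the in-frame motif in the C57BL/6 assembly shown above. The share was low with other V genes as well. *Traj23* sequences were productive in 4.01% of WT and 2.73% of SKG cases with *Trav9-4*, and in 13.0% and 7.79% with *Trav9-2*. Its productive log2 ratio of -0.82 had a scaled SE of 1.03, so its 1.5-fold difference was within that error.

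By the mean of both libraries, the next lowest were *Traj2*, with 53.7% in WT and 60.8% in SKG, and *Traj38*, with 58.3% and 58.1%. The highest by the same mean were *Traj26* with 73.8% and 74.8%, *Traj9* with 72.9% in both libraries, and *Traj47*, an ORF segment, with 68.6% and 75.7%. *Traj26*, *Traj9* and *Traj38* are among the segments where the libraries differed by 1 point or less. *Traj11*, chosen after its values were seen, differed most: 46.1% of its WT and 70.9% of its SKG sequences were productive. It is also the 1 segment with a share over 1.5-fold higher in SKG, from 0.265% to 0.533% of productive sequences (log2 ratio 1.01 ± 0.42), while its unproductive log2 ratio was 0.04.

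Pooled, the ORF segments did not have a lower productive share than the functional ones. The 5 ORF segments held 5.65% of productive WT and 6.40% of productive SKG sequences. They were productive in 63.0% of WT and 71.3% of SKG cases, against 61.1% and 69.6% for the 39 functional segments. Single ORF segments were unlike each other. *Traj25* had 77 WT and 72 SKG sequences that were all unproductive. *Traj4* was productive in 55.0% of WT and 71.0% of SKG sequences, so it was below the functional segments in WT. *Traj7*, with 64.7% and 67.0%, was below them in SKG. *Traj44* and *Traj47* were above them in both libraries.

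Set beside the other *Trav9* genes of the same libraries, *Trav9-3* used *Traj1* to *Traj30* less than *Trav9-2* and more than *Trav9-4*. The distal share was 29.1% in WT and 37.8% in SKG for *Trav9-2*, and *Trav9-3* minus *Trav9-2* was -2.77 points ± 0.894 in WT (quasi-binomial comparison, p = 0.00182 after adjustment over 10 comparisons) and -8.23 points ± 1.37 in SKG (adjusted p = 9.58e-10). For *Trav9-4* it was 15.2% and 19.2%, and *Trav9-3* was higher by 11.1 points ± 0.738 in WT (quasi-binomial adjusted p = 2.86e-49) and by 10.3 points ± 1.05 in SKG (adjusted p = 1.69e-21). *Trav9d-2*, *Trav9d-3* and *Trav9d-4*, the genes of the duplicated cluster, were far more distal, between 57.2% and 60.7% in WT and between 62.2% and 66.0% in SKG. By the overlap of productive *Traj* profiles, *Trav9-3* was most like *Trav9-2* (88.3% in WT and 87.2% in SKG), then *Trav9-4* (82.5% and 84.9%). The highest overlap with any other gene was 68.8%.

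**Figure D4:**
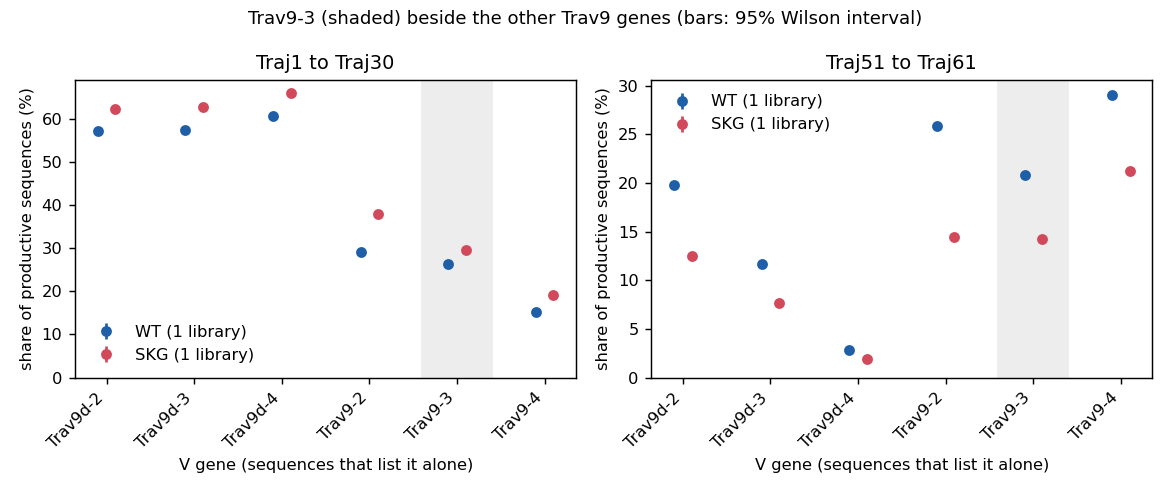
Share of productive sequences (y axes, percent) joined to *Traj1* to *Traj30* (left) and to *Traj51* to *Traj61* (right) for 6 *Trav9* genes (x axes) in the WT and SKG libraries, with 95% Wilson intervals smaller than most points. *Trav9-3*, shaded, lies between *Trav9-2* and *Trav9-4* on the left, and SKG is below WT for all 6 genes on the right.

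The distal difference between the libraries was smaller for *Trav9-3* than for *Trav9-2*. On the log odds scale it was 0.160 for *Trav9-3* and 0.391 for *Trav9-2*, a difference of -0.231 ± 0.0750 (scaled SE; quasi-binomial interaction, adjusted p = 0.00941 over 14 comparisons). In the band *Traj51* to *Traj61*, *Trav9-2* went from 25.9% to 14.5% and *Trav9-4* from 29.1% to 21.3%. The change of the productive share also differed between genes. It was 8.54 points for *Trav9-3* and -2.44 points for *Trav9d-2*, a difference in log odds of 0.490 ± 0.0652 (quasi-binomial adjusted p = 8.72e-13). The remaining *Trav9* genes rose as *Trav9-3* did, so the rise was not particular to it. Their changes were 4.92 points for *Trav9-2*, 7.31 for *Trav9-4*, 9.03 for *Trav9d-3* and 7.69 for *Trav9d-4*. Against *Trav9-4*, *Trav9d-3* and *Trav9d-4*, neither the distal nor the productive change differed past the quasi-binomial threshold (lowest adjusted p = 0.260), which does not show that they were alike.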

How the data were processed

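*Trav9* amplicons from sorted pre-selection DP thymocytes of WT and SKG mice were sequenced, 1 library per genotype, grouped from the labels. The authors derived clonal sequences with MiXCR, trimmed primers with cutadapt (version 1.13 in the submitters' processing notes), removed exact duplicates and took gene assignments from IMGT/HighV-QUEST. What they deposited is, per sequence, an identifier, a functionality class and V and J assignments as text, without coordinates. Copies of a rearrangement that carry different errors would each be counted. Sequences were counted per *Traj* segment. Log2 ratios of shares used 0.5 added to each count.

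The members and lists were chosen with earlier results of these data known. The segments named are the 10 most used, 3 at each extreme of the SKG to WT ratio (at least 1% in either library), 3 at each extreme of the mean productive share of both libraries (in each library at least 500 sequences), *Traj18* and *Traj33*. A fold needed at least 100 sequences over both libraries. Shares were compared with two-sided Fisher's exact tests. The quasi-binomial comparison used a normal approximation, with the binomial variance scaled by Pearson's chi-square over its degrees of freedom. That chi-square came from a logistic fit of productive against unproductive sequences on segment and library, using segments where each library had at least 50 sequences. The comparison was tested on simulated data in which every *Traj* segment had the same productive rate and the same distribution of copy numbers. Those data cannot show whether the factor holds for *Traj* use in these libraries. Benjamini-Hochberg adjustment was used. The alternatives were other classes, V and J filters, alleles, boundaries and minimum counts. Python 3.11.15, numpy 2.4.6, pandas 2.3.3, scipy 1.17.1, statsmodels 0.14.6 and matplotlib 3.10.9 were used. *Traj* positions and names came from NCBIM37 with GENCODE and from RefSeq.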

Additional observations from a re-analysis of the deposited data

Results flagged for a closer look

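The difference between the SKG and WT libraries was not the same for *Trav9-3* and other *Trav* genes in 4 comparisons of log odds that passed the quasi-binomial comparison, of 14 made. The variance factor was the larger of those of the genes compared, and was 99.8 with *Trav19* and 78.9 with *Trav11*. The distal change of *Trav9-3* minus that of *Trav9-2* was -0.231 (quasi-binomial adjusted p = 0.00941). Minus that of *Trav19*, a V gene near the *Traj* segments, it was -0.407 ± 0.147 (quasi-binomial adjusted p = 0.0197), although in percentage points the changes were 3.22 for *Trav9-3* and 3.06 for *Trav19*, which starts from 4.33% distal in WT. The productive share rose by 0.490 more than for *Trav9d-2* (quasi-binomial adjusted p = 8.72e-13). It rose by 0.362 ± 0.0715 more than for *Trav11* with *Trav11d* (quasi-binomial adjusted p = 3.04e-06), where the change was 0.435 points. *Trav19* and *Trav11* were amplified in libraries of their own, so gene and library cannot be told apart there.

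*Trav9-3* was also named in libraries made with other primers, with 67 of 397079 sequences in the SKG *Trav19* library, 2 of 426678 in the WT *Trav19* library and 0 in the *Trav11* libraries.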

How the results depend on the processing

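The distal difference of 3.22 points stayed positive and past the quasi-binomial comparison when other classes, V and J filters, alleles, a dropped leading segment or other boundaries were used, from 2.16 points (*Traj1* to *Traj20*) to 5.05 points (*Traj1* to *Traj40*). Without *Traj51* to *Traj61* it was 1.22 points and did not pass. The productive share difference stayed between 8.26 and 8.54 points. SKG minus WT of the mean *Traj* number was -1.85 for productive, -2.63 for unproductive and -2.09 for all sequences. Segments past 1.5-fold numbered 4 of 43 for productive and 10 of 44 for unproductive sequences (6 higher and 4 lower in SKG). The share over all pairs of a V gene and a *Traj* segment, 23%, is for productive sequences. None was computed for unproductive ones, so their count has no background beside it. The log2 ratio of *Traj23* changed sign to 0.091 in unproductive sequences. The causes were not tested. Of 21 named segments, 16 kept their sign in unproductive sequences, 20 in all sequences and 21 when ambiguous V assignments were added. No paired analysis was possible because each genotype had 1 library and the labels carry no replicate numbers. Without read counts or junctions, the number of independent rearrangements is unknown, so depth limits are stated for distinct sequences only.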
